A study of Drosophila melanogaster with 9 samples.

Results

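The receptors of dopamine, octopamine and tyramine were examined as 9 genes among the 17489 genes counted in Drosophila melanogaster central brains. Members were taken by their exact FlyBase symbols: 4 dopamine receptors (Dop1R1, Dop1R2, Dop2R and DopEcR) and 5 octopamine and tyramine receptors (Oamb, Octbeta1R, Octbeta2R, Octbeta3R and Oct-TyrR). All 9 were found in the files, and all 9 passed the filter on low counts in each comparison. The flies were 7 day old males of the w1118CS strain in every group, with 10 pooled brains in a sample and 3 samples in each of 3 groups. Every sample title carries the mark CD, the study's abbreviation for its control diet, so this diet is shared by all groups. Fasted flies were kept without food on wet tissue for 20 h. Refed flies were kept so for 16 h and then had 400 mM D-glucose for 2 h. Sated flies, which were not fasted overnight, spent 1 h on wet tissue before dissection. Central brains mix neurons and glia of many types, so fewer cells of a type and less RNA per cell cannot be told apart in these values.

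Dopamine, octopamine and tyramine are amine transmitters that act mainly through G protein-coupled receptors. Receptors coupled to Gs raise cAMP, those coupled to Gi lower it, and those coupled to Gq release calcium. In the fly brain, dopamine carries sugar reward and sets whether food memories are acted on in hungry flies, while octopamine, the insect counterpart of noradrenaline, is needed for the rise in activity that follows starvation. Tyramine is the precursor of octopamine and a transmitter of its own.

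Between 4957138 and 7897838 reads were counted on genes in each library, and between 281 and 8705 on each receptor gene. Sated replicate 2 and fasted replicates 1 and 2 stood apart, with 20.6% to 28.5% of stranded gene counts antisense to the gene, against 9.59% to 12.4% in the 6 other libraries. All 8 neuronal marker genes looked up were detected, with a summed level between 9377 and 10763 CPM (counts scaled to an equal library size) over the 9 libraries. Markers of tissue around the brain were detected too. The 13 retina markers summed to between 2053 and 2253 CPM in sated brains. This was above the range of 1525 to 1749 in refed and of 1297 to 1828 in fasted brains. The largest of them in every library was norpA, at 661 to 891 CPM. The retina marker ninaE varied widely within each group instead. It was at 65.3, 2.76 and 72.0 CPM in refed, 5.08, 292 and 18.6 in sated and 7.94, 108 and 12.4 in fasted replicates. The 9 muscle markers summed to 955 CPM in fasted replicate 2 and to between 74.4 and 188 in the other libraries. Of 10 fat body markers, 8 were below 1 CPM on average and 1 had no count in any library, and nearly all of their sum was 1 gene. This gene, apolpp, which encodes the main lipoprotein of the blood, was at 2146, 1708 and 2385 CPM in sated, 1455, 1201 and 995 in refed and 1483, 1354 and 1235 in fasted replicates.

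In the assembly named by the submitters, BDGP6, 6 of the 9 receptor genes lie on chromosome 3R, 2 on 3L and 1 on X. Octbeta3R (FBgn0250910, 12511570 to 12548229) and Octbeta2R (FBgn0038063, 12550625 to 12595725) are neighbours on the same strand of 3R, 2395 bases apart. Dop1R1 (FBgn0011582) lies on 3R from 14165379 to 14214810, and Dop2R (FBgn0053517) on X from 20004680 to 20062706. Oct-TyrR (FBgn0004514) lies on 3L from 22035003 to 22065279. The gene of the neuropeptide hugin, Hug, lies inside Octbeta3R on the opposite strand without sharing an exonic base. The microRNA gene mir-284 lies within an Octbeta2R exon and had no counts of its own. Opposite-strand reads were between 0.0796 (Dop1R2) and 0.115 (DopEcR) of the own-strand reads of each receptor, pooled over the 9 libraries. Single libraries differed more. For Octbeta2R the opposite-strand share of both strands' counts was 15.0% in sated replicate 2 and 19.2% and 23.4% in fasted replicates 1 and 2. In the other libraries it was 5.04% to 8.44%.

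Per exon length, the dopamine receptors were the more abundant of the 9. Dop2R, the D2-like receptor that couples to Gi and also serves as an autoreceptor on dopamine neurons, was highest, at 161 CPM per kb of exon over all 9 libraries (range 150.3 to 171). DopEcR, which responds to both dopamine and ecdysteroids, followed at 84.2, then Dop1R1 at 57.5 and Dop1R2 at 35.8. Dop1R1 and Dop1R2 are the D1-like receptors, and Dop1R2 was first described from the mushroom bodies.

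The octopamine and tyramine receptors lay below, with Octbeta1R at 28.7, Octbeta2R at 27.6, Octbeta3R at 24.1, Oamb at 20.0 and Oct-TyrR at 14.6 CPM per kb. The 3 Octbeta receptors are related to vertebrate beta-adrenergic receptors and raise cAMP, and Oamb is an alpha1-like receptor that releases calcium. Oct-TyrR binds tyramine as well as octopamine and lowers cAMP. The range of each receptor lay above that of the next in this order, except for Octbeta1R and Octbeta2R, whose ranges overlapped and of which Octbeta1R was the higher in 5 of 9 libraries. These levels divide by the union of all annotated exons of a gene, so a receptor with long alternative exons, such as Dop1R1 with 14565 exonic bases, is placed lower than by its counts.

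**Figure D1:**
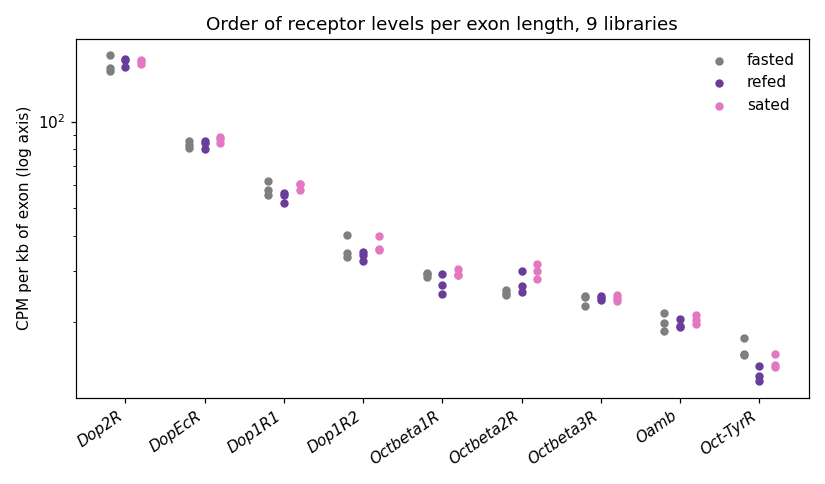
Level of each receptor transcript as CPM per kb of exon on a log axis, with 1 point per library coloured by group and genes ordered by their mean over the 9 libraries. The order runs from Dop2R at 161 down to Oct-TyrR at 14.6, and only Octbeta1R and Octbeta2R overlap with their neighbour in it.

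The other receptors of these ligands framed this order. Octalpha2R, an alpha2-like octopamine receptor, was at 43.6 CPM per kb, between Dop1R1 and Dop1R2. The tyramine receptor TyrR was at 8.49 CPM per kb. TyrRII was at 0.751 CPM per kb, with 18 to 29 counts in a library, too few to follow a change.

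The receptor transcripts varied little between libraries. The ratio of the highest to the lowest of the 9 libraries was between 1.09 for Octbeta3R and 1.41 for Oct-TyrR. Summed per exon length, the 4 dopamine receptors were at 334 ± 9.53 CPM per kb in refed, 345 ± 2.33 in sated and 336 ± 19.7 in fasted brains (SD, n = 3). The 5 octopamine and tyramine receptors summed to 111 ± 1.60, 119 ± 2.88 and 115 ± 2.90 CPM per kb in the same order (SD, n = 3).

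**Figure D2:**
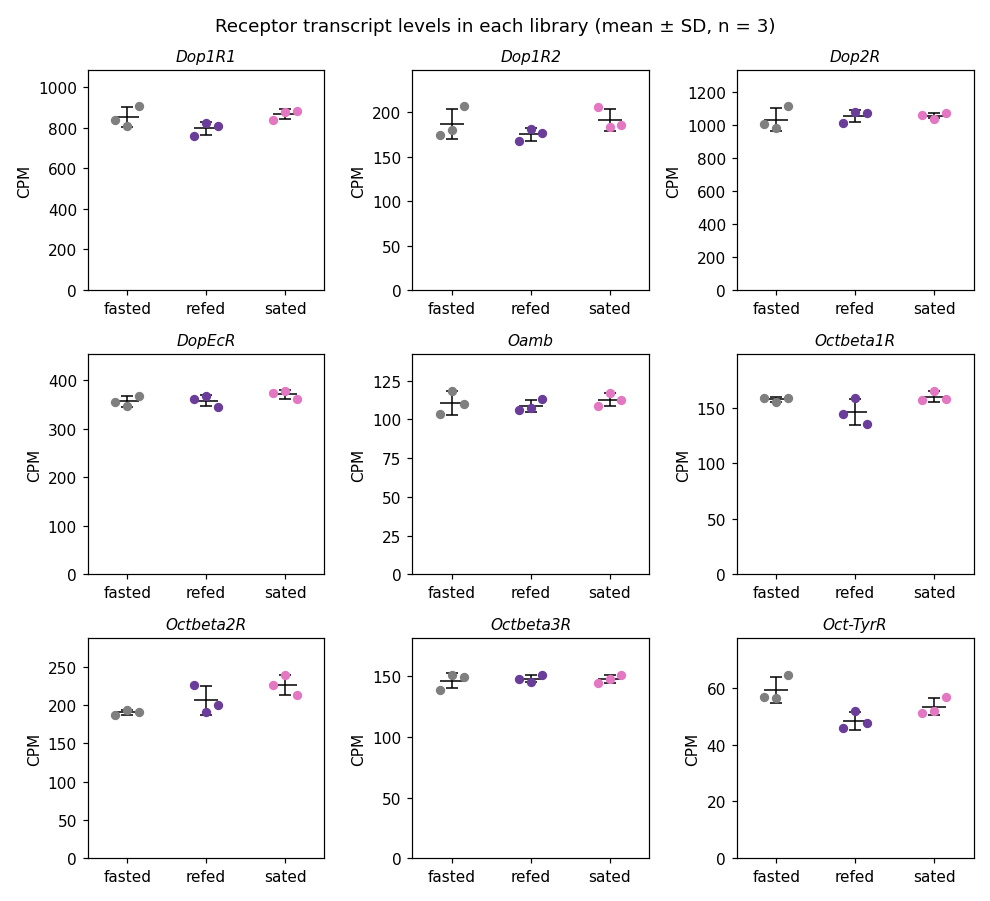
CPM of each receptor transcript in the 3 fasted, 3 refed and 3 sated libraries, with points for libraries and bars for the mean and SD. Sated libraries lie above fasted libraries for Octbeta2R, refed libraries lie below fasted libraries for Oct-TyrR, and most other panels overlap between groups.

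Octbeta2R, the beta-like receptor known in larvae for the growth of motor terminals after starvation, had the smallest p-value of the 9 receptors in any comparison. It was at 226, 239 and 213 CPM in sated replicates 1, 2 and 3, and at 187, 194 and 190.2 CPM in the fasted replicates. Every sated library lay above every fasted library. Refed libraries were spread over both ranges, at 227, 191 and 199.9 CPM. On the log2 scale, sated brains were 0.24 above fasted brains (standard error 0.05, 95% interval 0.13 to 0.36), a fold with a 95% interval from 1.09 to 1.28. The adjusted p was 0.104 in edgeR's quasi-likelihood test, so this difference did not pass the threshold of 0.05.

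The call for Octbeta2R depended on the procedure, while the size hardly did. DESeq2's Wald test put the log2 difference at 0.24 and its adjusted p at 0.00228, past the threshold. Adding each library's antisense share to the edgeR model gave 0.28 and 0.0248. Without the 3 libraries of high opposite-strand share, the log2 difference was 0.21 and the adjusted p was 0.146. Leaving out each library in turn kept the log2 fold change between 0.20 and 0.29, with adjusted p-values from 0.0921 to 0.379 in edgeR.

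**Figure D3:**
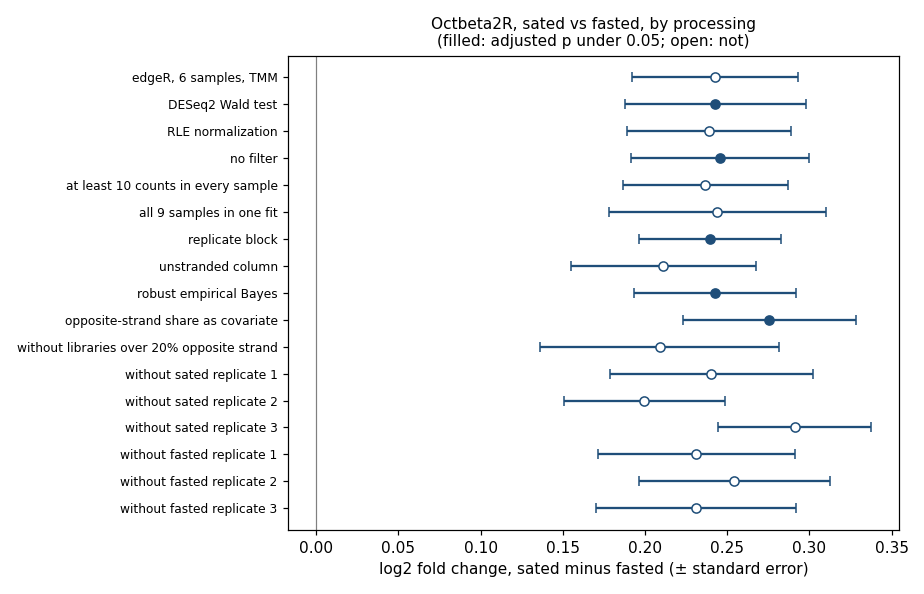
Log2 fold change of Octbeta2R between sated and fasted brains, with its standard error, under each processing, where filled points passed the adjusted p threshold of 0.05. All values lie between 0.20 and 0.29, and 5 of the 10 alternatives that do not leave out a single library passed.

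The neighbouring Octbeta3R, a further cAMP-raising beta-like receptor, passed in no comparison. It was at 144, 148 and 151 CPM in sated, 139, 150.4 and 149 in fasted and 148, 145 and 151 in refed libraries. The ranges of all 3 groups overlapped. Its fold in sated against fasted brains was 1.01, with a 95% interval from 0.940 to 1.08. Within each library, Octbeta2R was at 1.27, 1.31 and 1.14 times the level of Octbeta3R per exon length in sated brains, against 1.09, 1.05 and 1.04 in fasted brains. Refed brains, at 1.24, 1.07 and 1.08, overlapped with both. This ratio does not depend on library scaling, and its sated values lay above its fasted values. It was chosen after the values were seen and was not tested.

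Over the 9 libraries, the transcripts most like Octbeta2R among 5941 with a mean of at least 10 CPM were inaD, Su(z)2, dpr17, CG11099 and CG45002. Their Pearson correlations with it on the log2 CPM scale were 0.97, 0.94, 0.93, 0.92 and 0.91. These were the highest values of 5941 over 9 libraries, for a receptor picked by its p-value, so they were high by selection. They were not tested. inaD encodes the scaffold of the phototransduction complex in photoreceptors, and Su(z)2 a Polycomb group protein. inaD was at 20.0 CPM in sated, 15.6 in refed and 14.0 in fasted brains. The summed retina markers, whose ranges are given above, correlated with Octbeta2R at 0.75 over the 9 libraries, and more closely with DopEcR, at 0.82. The values of the other 7 receptors lay between -0.01 and 0.53. Of the 13 retina markers, 10 passed the filter on low counts in sated/fasted brains. All 10 had a log2 fold change above 0, 8 had an unadjusted p under 0.05 in edgeR and 0 passed the adjusted threshold. The shares of all transcripts were 49.8%, 9.72% and 0.268%. The parts of retinal tissue and of whatever sets apolpp in the Octbeta2R difference were not tested.

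Oct-TyrR stood out among the receptors between refed and fasted brains. Its level was 45.7, 51.8 and 47.6 CPM in refed replicates 1, 2 and 3, and 56.7, 56.3 and 64.5 CPM in fasted replicates. All refed libraries lay below all fasted ones. The refed/fasted log2 fold change was -0.31 (standard error 0.08, 95% interval -0.49 to -0.14), or 0.805-fold. The unadjusted p was 0.00285, the rank by p was 50 among 9025 genes, and the adjusted p of 0.514 in edgeR's quasi-likelihood test did not pass.

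Sated libraries held intermediate levels of Oct-TyrR, at 51.2, 51.9 and 56.8 CPM, and overlapped with both other groups. The log2 fold change was -0.16 in sated against fasted brains (adjusted p = 0.555 in edgeR) and -0.15 in refed against sated brains (adjusted p = 0.495 in edgeR). Without the 3 libraries of high opposite-strand share, the refed/fasted value was -0.41. The only fasted library in that fit was replicate 3, the highest library for Oct-TyrR. Without fasted replicate 2, the library of high muscle markers, the refed/fasted value was -0.34. With each library left out in turn, it lay between -0.36 and -0.24. None of the alternatives brought it past the threshold.

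The D1-like receptors had the smallest p-values of the 9 between refed and sated brains. Dop1R1, which couples to Gs and is needed in the mushroom bodies for olfactory learning, was at 760, 821 and 808 CPM in refed and at 840, 879 and 881 CPM in sated replicates. Dop1R2, which acts on both cAMP and calcium and is linked to forgetting, was at 168, 181 and 177 CPM in refed and at 206, 184 and 186 CPM in sated replicates. For both genes every refed library lay below every sated library.

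The log2 fold changes were -0.13 (standard error 0.05) for Dop1R1 and -0.14 (standard error 0.06) for Dop1R2, or 0.915-fold and 0.909-fold. Their unadjusted p-values were 0.0263 and 0.0370, and the adjusted p-values in edgeR's quasi-likelihood test were 0.367 and 0.396. Fasted libraries of Dop1R1, at 840, 809 and 905 CPM, reached into the refed range, and those of Dop1R2, at 174, 180.2 and 207 CPM, did as well. Against fasted brains the refed log2 values were -0.11 and -0.12, and neither passed (adjusted p = 0.705 and 0.742 in edgeR).

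Dop2R, the opposing D2-like receptor, did not separate the groups. Its level was 1011, 1081 and 1076 CPM in refed, 1064, 1039 and 1073 CPM in sated and 1006, 982 and 1114 CPM in fasted replicates. Its fold in refed against fasted brains was 1.01 (95% interval 0.925 to 1.10). Among the 9 receptors, Dop2R followed the opposite-strand share of the libraries most closely, with a correlation of -0.83 over the 9 libraries.

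Within each library, Dop1R1 was at 0.337, 0.341 and 0.337 times the level of Dop2R per exon length in refed brains. The ratio was 0.354, 0.379 and 0.368 in sated and 0.374, 0.370 and 0.364 in fasted brains. The refed libraries lay below all 6 others in this ratio, and they also did among the 6 libraries of low opposite-strand share. The ratio of Dop1R2 to Dop2R likewise ran from 0.208 to 0.212 in refed brains and from 0.219 to 0.245 in the others. These ratios were chosen after the values were seen and have no test. How often other pairs of genes separate in this way was not examined.

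**Figure D4:**
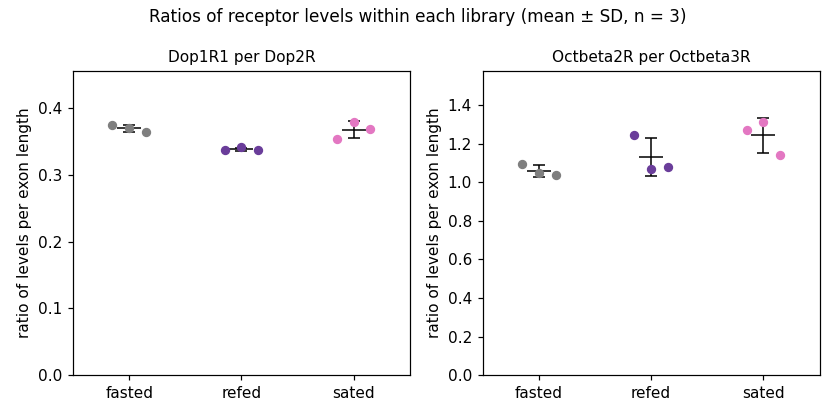
Ratio of Dop1R1 to Dop2R and of Octbeta2R to Octbeta3R within each library, per exon length, with points for libraries and bars for the mean and SD of 3 libraries. The Dop1R1 ratio is 0.337 to 0.341 in refed libraries and at least 0.354 in the others, and the Octbeta2R ratio is at least 1.14 in sated and at most 1.09 in fasted libraries, with refed libraries at 1.07 to 1.24 across both.

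DopEcR, Oamb and Octbeta1R passed in no comparison. DopEcR ranged from 345 to 367 CPM in refed, 360.4 to 378 in sated and 346 to 367 in fasted libraries. Oamb ranged from 106 to 113, 109 to 117 and 103 to 119 CPM in the same groups. For both, the ranges of all 3 groups overlapped. Octbeta1R, which is known to act as a brake on Octbeta2R at the larval neuromuscular junction, was at 145, 159 and 136 CPM in refed, 158, 166 and 158 in sated and 159.5, 155 and 159 in fasted replicates. Refed replicates 1 and 3 were the lowest of the 9 libraries for Octbeta1R. Its log2 fold change was -0.13 in refed against fasted brains (standard error 0.06, adjusted p = 0.705 in edgeR's quasi-likelihood test) and -0.14 against sated brains (adjusted p = 0.441).

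None of the 9 receptors passed edgeR's adjusted p threshold of 0.05 in any of the 3 comparisons. Few transcripts of any kind did: 0.111% of 9025 in refed/fasted, 0.268% of 8957 in sated/fasted and 0.179% of 8931 in refed/sated brains. DESeq2 called 0, 1 and 0 of the receptors, against 0.242%, 1.15% and 0.403% of the transcripts with an adjusted p. At an unadjusted p under 0.05 in edgeR, 1 of 9 receptors stood out in refed/fasted (Oct-TyrR), 1 in sated/fasted (Octbeta2R) and 2 in refed/sated brains (Dop1R1 and Dop1R2). The share of all transcripts was 6.77%, 9.72% and 11.5%. Groups did not overlap for the same 1, 1 and 2 receptors, against 12.1%, 14.4% and 18.2% of all transcripts, so these counts are close to the background.

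Most receptor values in refed brains were below 0 without passing, and how many depended on the processing, least so in refed/sated brains. In refed/sated brains 0 of 9 had a log2 fold change above 0, against 49.1% of all transcripts. Their median was -0.13 against -0.0030 over all transcripts. With each library left out in turn, the receptor median lay between -0.099 and -0.079. The alternatives gave 0 or 1 of 9 there, and Octbeta3R (-0.0035) and Dop2R (-0.0089) lay next to 0. Other lists leaned the same way in refed/sated brains. Above 0 were 2 of 8 other amine receptors, 0 of 19 cAMP and PKA genes and 2 of 12 Gq and calcium genes. So were 1 of 12 G protein and desensitization genes and 2 of 8 neuronal markers. Of the amine synthesis and clearance genes, 8 of 13 were above 0. In refed/fasted brains 2 of 9 receptors were above 0, against 47.1% of all transcripts, with a median of -0.04. DESeq2, no filter or all 9 samples in 1 fit gave 4 of 9 there, since several values lay next to 0. In sated/fasted brains 8 of 9 were above 0, against 49.8%, with a median of 0.03. This count was 5 of 9 with the opposite-strand covariate and 3 of 9 without the 3 libraries of high opposite-strand share. Each pair of these comparisons shares a group, so their directions are linked. The values were small: leaving aside Octbeta2R and Oct-TyrR, the 95% intervals in all 3 comparisons lay between 0.828-fold and 1.13-fold.

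**Figure D5:**
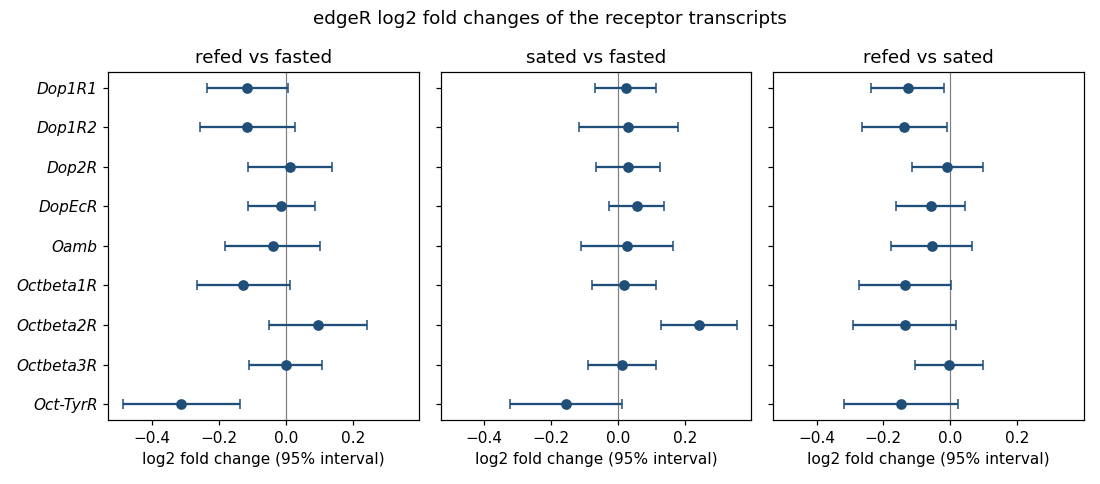
Log2 fold changes of the 9 receptor transcripts in the 3 comparisons, with 95% intervals from edgeR that are not adjusted for the number of genes. The intervals that leave out 0 are those of Oct-TyrR in refed/fasted, Octbeta2R in sated/fasted, and Dop1R1 and Dop1R2 in refed/sated brains.

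Several of these receptors are known to be abundant in Kenyon cells, the intrinsic neurons of the mushroom bodies, and markers of these cells were measured beside them. All 9 Kenyon cell markers looked up had a log2 fold change below 0 in refed against both fasted and sated brains. Over all transcripts, 47.1% and 49.1% were above 0 there. None of the 9 markers passed the threshold, and 4 had an unadjusted p under 0.05 in each comparison, against 6.77% and 11.5% of all transcripts. Their summed level was between 4190 and 5037 CPM in refed, 5147 and 5405 in sated and 5063 and 5353 in fasted libraries. Octbeta1R followed this sum most closely, with a correlation of 0.93 over the 9 libraries, followed by DopEcR at 0.70, Oct-TyrR at 0.58, Dop1R1 at 0.58 and Dop1R2 at 0.48. Octbeta2R was at 0.19, Oamb at 0.03, Dop2R at -0.01 and Octbeta3R at -0.23. The largest markers in this sum were mub, at 1486 to 2244 CPM, rut, at 900 to 1006, and Pka-C1, at 695 to 928. Refed replicate 3 was the lowest library for mub and Pka-C1. Refed replicate 3 had the lowest Kenyon cell sum. It also had the lowest sum of the 8 neuronal markers, at 9377 CPM, against 9885 to 10763 in the other libraries. In refed against both fasted and sated brains, 2 of 8 neuronal markers had a log2 fold change above 0. Without refed replicate 3, the log2 fold change of Octbeta1R was -0.07 in refed/fasted and -0.08 in refed/sated brains. The median of the Kenyon cell markers was then -0.08 and -0.07, against -0.13 and -0.15 with all libraries. Still 0 of 9 of these markers were above 0. The part of Kenyon cells in the receptor differences was not tested.

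Octalpha2R, the alpha2-like receptor, passed in no comparison. It was at 413, 420.4 and 392 CPM in refed, 449.8, 446 and 460.3 in sated and 414, 414 and 441 in fasted replicates. Sated libraries lay above all others. Its log2 fold change was 0.09 in sated/fasted (adjusted p = 0.406) and -0.15 in refed/sated brains (adjusted p = 0.232 in edgeR). TyrR and TyrRII passed in no comparison, nor did any of the 5 serotonin receptors. The smallest p-value among the serotonin receptors was that of 5-HT1A, a Gi-coupled receptor, in refed/sated brains, at -0.23 on the log2 scale (adjusted p = 0.0803 in edgeR). Against fasted brains its log2 values were -0.17 after refeeding and 0.08 in sated flies (adjusted p = 0.697 and 0.627 in edgeR).

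The genes that make, pack and clear these amines were measured as background to the receptors. Of 13 such genes tested, 0 passed in any comparison. In sated/fasted brains the smallest p-values were those of Hn, phenylalanine hydroxylase, at -0.65 on the log2 scale (adjusted p = 0.331 in edgeR), and Pu, the first enzyme of biopterin cofactor synthesis, with 0.25 (adjusted p = 0.365). Pu and Ddc, the decarboxylase that forms dopamine, led in refed/sated brains, with log2 fold changes of -0.30 and 0.11 (adjusted p = 0.219 and 0.367 in edgeR). In refed/fasted brains they were Tdc1, a tyrosine decarboxylase, with -1.58, and the vesicular transporter Vmat, with 0.11 (adjusted p = 0.705 and 0.742). Tdc1 was at 5.17, 12.6 and 1.02 CPM in fasted and 1.92 to 2.24 CPM in refed libraries, and the highest was fasted replicate 2, the library of high muscle markers. Without that library its log2 value was -0.53, and without the 3 libraries of high opposite-strand share it was 0.98.

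Downstream of the receptors, 0 of 19 cAMP and PKA genes passed in any comparison, and 0 of 19 had a log2 fold change above 0 in refed/sated brains, against 49.1% of all transcripts. Their median there was -0.08. Refed replicate 3 stood apart from refed replicates 1 and 2 and was the lowest of the 9 libraries for Galphao (790.4 CPM), dnc (672), Pka-C1 (695) and Pka-R2 (389). Without it 1 of 19 was above 0, with a median of -0.06. Akap200, an anchoring protein of PKA, had the smallest p-value, with 0.30 in sated/fasted and -0.27 in refed/sated brains (adjusted p = 0.155 and 0.279 in edgeR). Galphao, the Go subunit, followed in sated/fasted brains with 0.08, and the phosphodiesterase gene Pde1c in refed/sated brains with -0.13 (adjusted p = 0.424 and 0.322 in edgeR). In refed/fasted brains the leading genes were Galphas, the Gs subunit, with -0.12, and Pka-C1, the catalytic subunit of PKA, with -0.19 (adjusted p = 0.705 for both). Pka-C1 and the adenylyl cyclase gene rut are also on the Kenyon cell list.

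Of 12 Gq and calcium genes, 0 passed. norpA and inaC led in both comparisons with sated brains, with log2 fold changes of 0.19 and 0.71 in sated/fasted and of -0.23 and -0.59 in refed/sated brains (adjusted p = 0.117, 0.379, 0.186 and 0.0727 in edgeR). norpA encodes the phospholipase C and inaC the protein kinase C of photoreceptors, and both are on the retina list. In refed/fasted brains RyR, the ryanodine receptor, had 0.13 and Pkc53E had -0.11 (adjusted p = 0.705 for both in edgeR).

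Among 12 genes of G protein beta and gamma subunits and receptor desensitization, 1 passed. Arr1, a visual arrestin that is also on the retina list, was lower in refed than in sated brains, at -0.52 on the log2 scale (standard error 0.08), with an adjusted p of 0.0477 in edgeR's quasi-likelihood test. It passed with DESeq2 as well. The adjusted p was 0.0216 in edgeR without sated replicate 2, the only library of high opposite-strand share in this comparison. Of 12 retina markers tested in refed/sated brains, 0 had a log2 fold change above 0, against 49.1% of all transcripts. Of the 12, 2 passed, against 0.179% of all transcripts. They were Arr1 and the photoreceptor channel gene trpl, the latter named here after its values were seen. The part of retinal tissue in the Arr1 difference was not tested. In sated/fasted brains Arr1 had a log2 fold change of 0.63 and loco, a regulator of G protein signalling, of 0.23 (adjusted p = 0.369 for both in edgeR). In refed/fasted brains loco had 0.18 and RSG7 had -0.10 (adjusted p = 0.733 and 0.764).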

How the data were processed

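RNA of central brains was ribo-depleted and sequenced by the authors, who aligned it with STAR and deposited whole-number counts per gene, not normalized. Each file holds unstranded, gene-strand and opposite-strand counts. The submitters' processing notes name BDGP6, SAMtools 1.4, HTSeq and DESeq2 1.18.0. The annotation release is not given in the sources used here. The gene-strand count was used. Rows that name no gene stayed out of library sizes and tests: unmapped reads (11.4% to 13.2% of all reads), multimapping reads (7.19% to 16.0%), reads on no feature (21.2% to 31.7%) and ambiguous reads (1.16% to 1.60%). Symbols come from a gene name table, which held 17215 of 17489 identifiers, and coordinates and exon lengths from the Ensembl annotation of BDGP6.

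In R 4.3.3, edgeR 4.0.16 (filterByExpr, TMM, glmQLFit, glmQLFTest, two-sided) was fitted to the 6 libraries of each comparison, with Benjamini-Hochberg adjustment over all genes tested. Standard errors are the log2 fold change over the root of F. CPM used TMM over all 9 libraries, with a prior count of 2 for log2 CPM. Fits were tried on simulated counts with changes far larger than the receptor differences, so detection of small changes was not examined. All replicate pairs differed by more than sampling noise. Alternatives were DESeq2 1.42.0, RLE, no filter, at least 10 counts in every sample, all 9 samples, a replicate block, unstranded counts, robust empirical Bayes, the opposite-strand share as covariate, no libraries over 20% opposite strand, and each replicate left out. Named genes were the 9 receptors, Octalpha2R, TyrR, TyrRII, the transcripts most correlated with the receptor of smallest p, and in each pathway list the genes past the threshold, otherwise those with the 2 smallest p-values. Members and lists were chosen with earlier results of these data known. Reads carry no molecular identifiers, so depth does not equal molecules. Replicates were pools of 10 brains, all dissected and extracted on 1 day.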

Additional observations from a re-analysis of the deposited data

Results flagged for a closer look

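Among the receptors and the genes of the pathway lists, the effects of refeeding and of regular feeding, each against fasted brains, differed past the threshold for Arr1. The direct test of refed against sated brains gave a log2 fold change of -0.52 (adjusted p = 0.0477 in edgeR's quasi-likelihood test). Arr1 was at 179, 144 and 150.0 CPM in refed, 231, 203 and 241 CPM in sated and 143, 86.9 and 199.7 CPM in fasted replicates. The retina marker trpl, which is in no pathway list, also passed in refed against sated brains, at -0.58 on the log2 scale (adjusted p = 0.0473 in edgeR).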

How the results depend on the processing

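Of 432 recomputed log2 fold changes of the 9 receptors, 383 kept their direction and side of the threshold, 5 newly passed and 44 turned direction. None of those that turned passed, and none had exceeded 0.04 in size before. The 5 that passed were Octbeta2R in sated/fasted brains with DESeq2, no filter, the replicate block, robust empirical Bayes or the opposite-strand covariate, which each raised the receptors called there from 0 to 1. The cause was not tested. Transcripts called numbered 10, 24 and 16 in refed/fasted, sated/fasted and refed/sated brains. They were 28, 110 and 51 with DESeq2, and 31, 75 and 121 without a filter. The unstranded column gave 20, 55 and 41. The opposite-strand covariate gave 6 and 65 in the first and second of these. Robust empirical Bayes gave 65 in sated/fasted and 34 in refed/sated brains. Without the 3 libraries of high opposite-strand share, 204 were called in sated/fasted brains, and refed/sated brains gave 53 with all 9 samples and 7 with at least 10 counts in every sample. Leaving out each library gave 2 to 264 (without fasted replicate 3), 5 to 30 and 2 to 75 (without refed replicate 3). Of the 3 libraries, refed/fasted brains held only fasted replicates 1 and 2, and refed/sated brains only sated replicate 2. Without the 3 libraries the fasted group held 1 sample, which was assumed to vary like the other groups.

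In the fit with a replicate block, the calls were 6 in refed/fasted brains and 72 in sated/fasted brains, Octbeta3R turned to 0.00051 in refed/fasted brains, and Octbeta2R in sated/fasted brains had an adjusted p of 0.0383. Deviations of same-numbered samples correlated from -0.13 to 0.14 in refed/fasted, 0.05 to 0.21 in sated/fasted and -0.18 to -0.05 in refed/sated brains. For differently numbered samples they correlated from -0.19 to 0.17, -0.25 to 0.14 and -0.07 to 0.16. In sated/fasted brains the means were 0.15 for the same and -0.07 for different numbers. The sample titles state no pairing, so the numbers were not taken to pair samples. Whether they do was not tested.

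The directions that turned in refed/fasted brains were those of DopEcR (0.00011 with DESeq2, 0.0074 with no filter, 0.00083 with all 9 samples and 0.0088 unstranded), Octbeta3R (0.013 with DESeq2, 0.0040 with RLE, 0.020 with no filter and 0.014 with all 9 samples) and Dop2R (-0.019 unstranded, -0.061 with the covariate and -0.073 without the 3 libraries). In sated/fasted brains, the unstranded column turned Dop2R (-0.0043), Oamb (-0.0010) and Octbeta3R (-0.0075), and the covariate turned Dop1R1 (-0.0050), Dop1R2 (-0.034) and Dop2R (-0.016). There, leaving out the 3 libraries turned Dop1R1 (-0.066), Dop1R2 (-0.071), Dop2R (-0.054), Octbeta1R (-0.0074) and Octbeta3R (-0.0060). In refed/sated brains no filter turned Octbeta3R (0.0019). With each library left out, the ranges that crossed 0 in refed/fasted brains were -0.025 to 0.030 for Octbeta3R, -0.013 to 0.073 for Dop2R, -0.031 to 0.021 for DopEcR and -0.075 to 0.022 for Oamb. In sated/fasted brains they were -0.025 to 0.102 for Dop1R2, -0.018 to 0.077 for Oamb, -0.0062 to 0.035 for Octbeta1R, -0.021 to 0.032 for Octbeta3R, -0.012 to 0.058 for Dop1R1 and -0.0052 to 0.077 for Dop2R. In refed/sated brains they were -0.025 to 0.022 for Dop2R and -0.016 to 0.012 for Octbeta3R. The directions of whole lists and the values of Tdc1 were recomputed by a choice made after seeing the data. Tdc1 in refed/fasted brains turned to 0.054 unstranded, 0.74 with the covariate and 0.98 without the 3 libraries, passed without fasted replicate 3 (-2.12, adjusted p = 0.0238 in edgeR), and gave no value with at least 10 counts in every sample.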
